A study of Mus musculus with 37 samples.

Results

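Transcripts of 33 myelin and mature oligodendrocyte genes were followed in RNA of astrocytes that had been isolated from mouse cortex on magnetic beads that bind ACSA-2, an antigen of the astrocyte surface. The genes were chosen as a list of symbols, with earlier results of these data known, and each matched 1 Ensembl gene among the 21975 genes of the deposited data. The mice were wild-type and all male, and the sources used here do not give their age. One set received a severe controlled cortical impact (CCI), a focal contusion through an opening in the skull, and the sham set was operated on without the impact. Recording electrodes were implanted in both sets, and the CCI mice were divided by electroencephalography into those with post-traumatic epilepsy (PTE+) and those without it (PTE−). Cells were collected 4 months after surgery. The ipsilateral cortex gave 19 libraries (4 PTE+, 10 PTE− and 5 sham) and the contralateral cortex 18 libraries (4 PTE+, 9 PTE− and 5 sham), with both hemispheres present for 17 mice (3 PTE+, 9 PTE− and 5 sham). The methods name the strain as CD1 and the sample labels as CD31. The beads enrich astrocytes and do not remove every other cell, and each library holds the cells of 1 hemisphere of 1 mouse.

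Myelin is the stacked membrane that oligodendrocytes wrap around axons, and it lets nerve impulses travel fast. Its compact layers are held together by basic proteins such as Mbp and by membrane-spanning proteins, its innermost and outermost faces carry adhesion molecules such as Mag and Mog, and its lipids are rich in galactolipids with hydroxylated fatty acids. The factor Myrf switches on many of these genes when a precursor cell matures, and several of the transcripts, Mbp and Mobp among them, travel into the cell's processes and are translated there. The 33 genes were grouped by role into 12 structural proteins of myelin, 6 enzymes, 2 transcription factors, 4 carriers, chaperones and secreted proteins, 6 receptors, channels and signalling proteins, and 3 other membrane proteins.

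Levels are given as TPM, a share of all transcripts of a library that is corrected for transcript length. They keep no sequencing depth, so the number of reads behind a value is unknown. The labelled cell type was seen in the data, since the summed level of 10 astrocyte markers lay between 14149 and 20707 TPM in the ipsilateral and between 14749 and 19943 TPM in the contralateral libraries. The sum of the 33 myelin genes ran from 1327 to 6830 TPM in the ipsilateral libraries, with both extremes in sham mice, and from 1911 to 5200 TPM in the contralateral ones. None of the markers of astrocytes, oligodendrocyte precursors, microglia, neurons, endothelial cells and mural cells or fibroblasts was at 0 in all libraries of a group. Of 36 libraries, the number of genes above 0 TPM was 15599 to 18534, while the ipsilateral library of PTE− mouse 9_14 had 10727. Sham mouse 8_16 had the highest ipsilateral level of 24 of the 33 genes. The counts of calls that these libraries enter, and the genes whose difference moves most with either, are also given without it.

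The most abundant member was Mbp, which encodes myelin basic protein. Its level lay between 124 and 3484 TPM with a median of 1041 TPM over the 36 libraries other than 9_14, and its rank among all genes of a library was between 30 and 1463. Cnp, which encodes a phosphodiesterase of the non-compact layers, had a median of 361 TPM, and Apod, which encodes a lipid carrier, one of 371 TPM. Qdpr, the enzyme that recycles tetrahydrobiopterin, and Cryab, a small heat shock chaperone, followed with medians of 274 and 240.1 TPM. At the other end of the order were Cldn11, the tight junction protein of myelin, with a median of 1.21 TPM, Enpp6, a choline phosphodiesterase of newly formed oligodendrocytes, with 0.825 TPM, and Myrf, with 0.69 TPM. In 14 of the 33 genes the level was above 5 TPM in all 36 libraries.

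**Figure D1:**
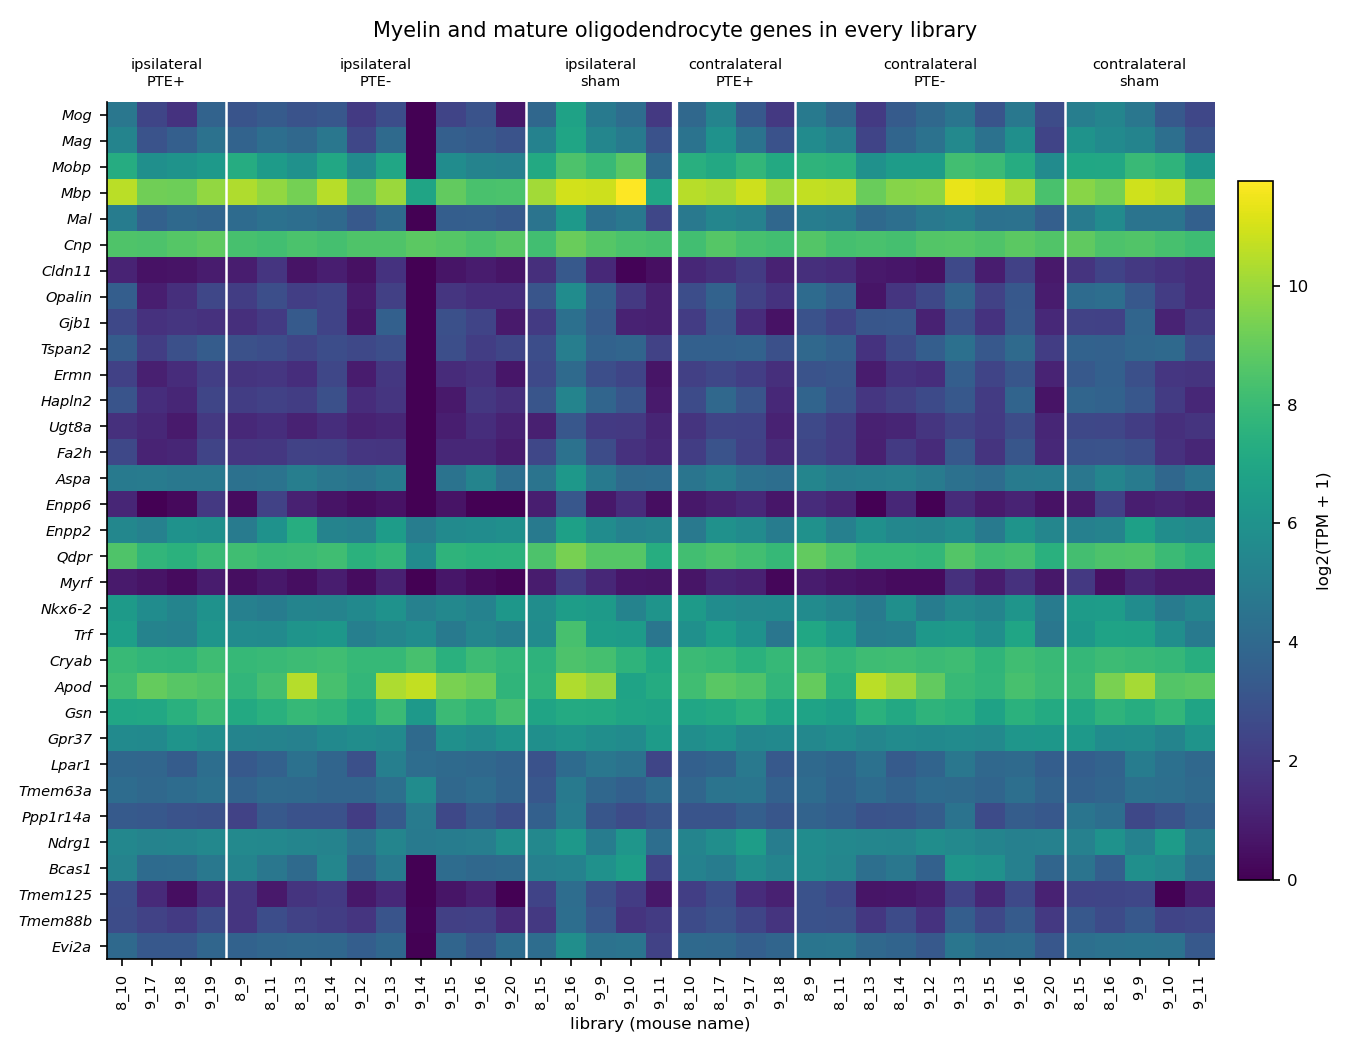
Level of each of the 33 genes (rows) in each of the 37 libraries (columns, by mouse name), as log2(TPM + 1), with white lines between groups. The column of sham mouse 8_16 is bright in most ipsilateral rows, the column of PTE− mouse 9_14 is dark at 18 genes, and Cnp and Cryab are even across libraries.

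The 33 genes did not vary alike. Across the 36 libraries Mog, the outer-surface glycoprotein of myelin, ran from 0.67 to 108 TPM and Mag, the inner adhesion glycoprotein, from 4.30 to 119.9 TPM. The range of Mobp, a basic protein of compact myelin, was 15.1 to 435 TPM. In contrast, Cnp stayed between 278 and 547 TPM, Cryab between 127 and 358 TPM and Gpr37, a receptor of mature oligodendrocytes, between 35.2 and 87.0 TPM, and these were the 3 members whose highest value was less than 3 times the lowest. The standard deviation of log2(TPM + 1) ran from 0.22 for Cnp to 1.26 for Mog and was under 0.5 for 9 of the 33 genes.

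The library of PTE− mouse 9_14 separated the same genes in another way. It listed 18 of the 33 genes at 0, among them Mog, Mag, Mobp, Mal, Opalin and Bcas1, and held Mbp at 114 TPM. Cnp was at 440 TPM, Cryab at 320 TPM and Apod at 1622 TPM in the same library. The first of these lay inside the range of the other libraries, and the last was the highest level of Apod in the series. Without read counts it cannot be told whether a listed 0 is a gene with few reads or with none.

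Each member was also compared with the mean of the other 32 across libraries, as deviations of log2(TPM + 1) from the group means. Over the 19 ipsilateral libraries the Pearson correlation was 0.95 for Mag, 0.94 for Ermn, a cytoskeletal protein of oligodendrocyte processes, and 0.93 for both Mog and Opalin, a membrane glycoprotein of mature oligodendrocytes. It was 0.19 for Cnp, 0.00082 for Ppp1r14a, a phosphatase inhibitor, and −0.19 for Tmem63a, a mechanically gated channel. The median was 0.78, with 21 genes over 0.7 and 6 under 0.3. With sham mouse 8_16 and PTE− mouse 9_14 left out, which was decided with the values in view, the median over 17 libraries was 0.71, and Gpr37 stood lowest at −0.68. In the 18 contralateral libraries the median was 0.62, Mag was highest at 0.94 and Apod lowest at −0.08. The points are libraries whose depth is unknown and whose share of other cells can differ, so these correlations are a description, and no test was made.

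Outside the list, the genes whose deviations were most like the members' mean in the ipsilateral libraries were Stmn4 (r = 0.92), Tubb4a (0.91) and Stmn1 (0.89), among 10180 genes with a mean above 5 TPM. With sham mouse 8_16 and PTE− mouse 9_14 left out, Tubb4a, Bin1 and Stmn4 (each 0.84) led among 10203 genes. The order was then close, with Stmn1 at rank 7 (0.83) and Txn2 at rank 10 (0.82). In the contralateral libraries Tubb4a (0.94), Stmn4 (0.87) and Arsg (0.83) led among 10238 genes. Tubb4a encodes a tubulin that is abundant in oligodendrocytes, and Stmn4 and Stmn1 encode microtubule-binding stathmins.

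Within the correlated genes, the ratio of Mbp to Mog differed between mice. In the ipsilateral cortex it was 18.2 in sham mouse 8_16 and 200.1 in sham mouse 9_10, with 78.2, 69.6 and 43.5 in sham mice 8_15, 9_9 and 9_11. The contralateral cortex of the same 5 mice gave 15.9, 190.4, 26.3, 80.1 and 114 in that order. The lowest and the highest sham mouse were thus the same in both hemispheres. In CCI mice the ratio was 48.2 to 511 in the 13 ipsilateral libraries with Mog above 0 and 33.8 to 374 in the contralateral ones. Mobp followed Mbp, at 3.34 times Mog in the ipsilateral library of sham mouse 8_16 and 24.98 times in that of 9_10. Mice 8_16 and 9_10 also divided the list, in that 9_10 held the highest ipsilateral level of Mbp, Mobp and Bcas1, and 8_16 that of 24 others. This split was noticed in the values and was not tested.

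**Figure D2:**
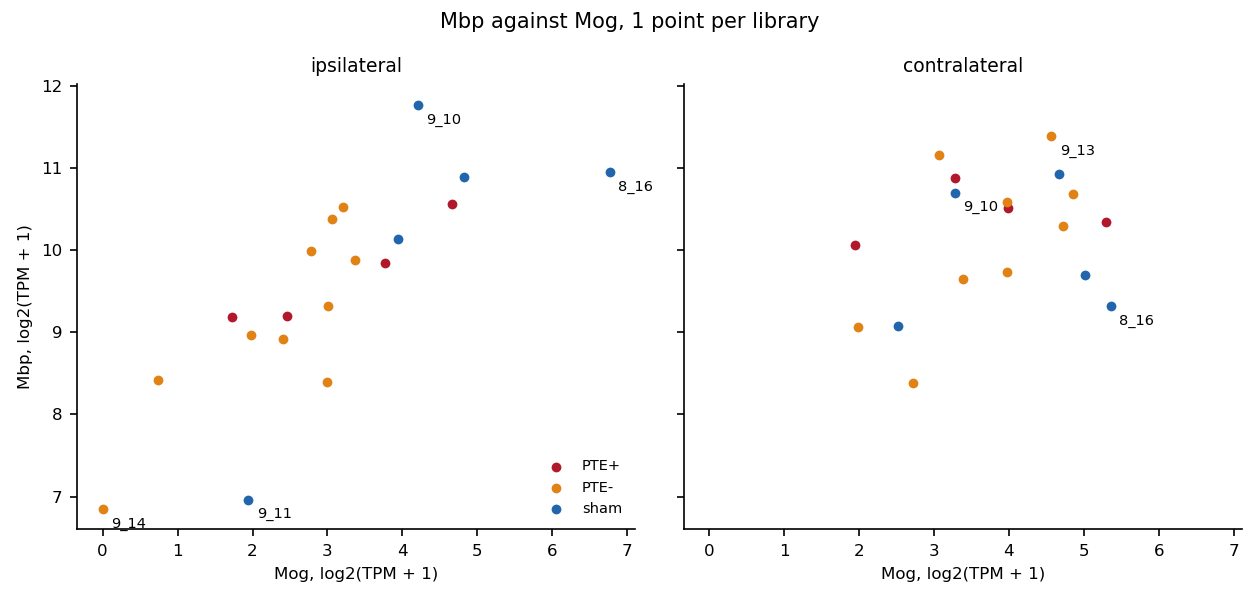
Level of Mbp against that of Mog, both as log2(TPM + 1), with 1 point per library and the named mice labelled. In both panels sham mouse 8_16 lies to the right of sham mouse 9_10, whose Mbp is the higher of the pair.

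The stretch of 250 bases before the annotated start was read for the 24 members with a RefSeq promoter entry (build GRCm38.p6). The letters CTGGCAC or CTGGTAC, a core sequence bound by Myrf, were searched on both strands and occurred in 5 of the 24 members (20.8%), Cnp, Hapln2, Lpar1, Mag and Mog, and in 6.79% of 27025 genes. The letters ACAAAG, a core sequence of SOX factors, occurred in 9 of 24 (37.5%) and in 18.6% of all genes. CAGCTG, an E-box, was held by 3 members (12.5%, against 14.7% of all genes) and TATAAA, the TATA box, by 2 (8.33%, against 8.94%). These motifs and the promoters shown were chosen with the values known, the counts are small, and a match is a description of letters and not a site in use. Sequences are given for Mog and Hapln2, which followed the members' mean closely and hold the first motif, and for Opalin and Mobp, which hold the SOX letters. Each runs 5′ to 3′ on the strand of the gene and ends at the base before its RefSeq start, with capitals marking the matched letters. Mog lies at chr17:37023399-37023648 (minus strand) with 1 match to the first motif, 83 bases before the start, and Hapln2 at chr3:88027512-88027761 (minus strand) with 1 match 144 bases and an E-box 115 bases before the start. Opalin lies at chr19:41077114-41077363 (minus strand) with 1 SOX match 139 bases before the start, and Mobp at chr9:120149492-120149741 (plus strand) with 6 SOX matches, all read as CTTTGT, between 243 and 120 bases before it.
Mog: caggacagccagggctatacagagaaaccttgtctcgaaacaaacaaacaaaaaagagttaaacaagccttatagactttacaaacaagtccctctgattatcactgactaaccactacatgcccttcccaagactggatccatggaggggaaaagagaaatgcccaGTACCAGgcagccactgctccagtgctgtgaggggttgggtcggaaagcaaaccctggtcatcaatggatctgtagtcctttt
Hapln2: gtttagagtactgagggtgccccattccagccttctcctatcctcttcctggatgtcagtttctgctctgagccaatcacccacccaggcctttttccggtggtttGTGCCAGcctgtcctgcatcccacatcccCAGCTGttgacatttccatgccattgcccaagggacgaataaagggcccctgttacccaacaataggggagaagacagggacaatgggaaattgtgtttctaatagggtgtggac
Opalin: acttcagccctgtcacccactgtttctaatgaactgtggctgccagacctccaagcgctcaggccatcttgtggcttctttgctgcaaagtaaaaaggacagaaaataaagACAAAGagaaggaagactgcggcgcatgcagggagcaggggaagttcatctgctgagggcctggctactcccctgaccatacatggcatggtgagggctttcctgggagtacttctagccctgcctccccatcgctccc
Mobp: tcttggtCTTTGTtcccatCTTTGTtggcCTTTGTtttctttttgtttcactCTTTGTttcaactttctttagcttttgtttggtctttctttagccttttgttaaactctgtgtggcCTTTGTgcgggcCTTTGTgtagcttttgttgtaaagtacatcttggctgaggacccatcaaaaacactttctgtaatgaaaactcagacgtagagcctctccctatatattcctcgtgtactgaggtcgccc

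The first question of the study was how astrocytes of injured cortex differ from those of sham mice. In the ipsilateral cortex most myelin genes had lower means in the 14 CCI than in the 5 sham libraries. Subtracting the sham mean of log2(TPM + 1) from the CCI mean gave a value below 0 for 27 of the 33 genes, with a median of −0.64, against a median of 0.0020 over all 19969 genes with any value above 0. Genes were tested with limma, which fits each gene linearly and moderates its variance with those of the others, and a call needed both an unadjusted p below 0.05 and a 1.2-fold difference. Over all 33 genes, without a filter on level, 11 were called lower and 1 higher, where 1.9% of all genes were called, 0.786% lower and 1.11% higher. The list holds Mag, Tmem125, Hapln2, Opalin and Mog, which the study names as its top 5 downregulated genes in this same comparison. Since the list was chosen with such results known, its share of calls beside that of all genes is a description and not a test. With a filter on level, a mean above 5 TPM in at least 1 group, 29 of the 33 were tested, and the same comparison called 9 lower and 1 higher, where 0.383% and 1.24% of 10434 genes were called, 1.62% in both directions. Opalin, Gjb1, Ermn, Hapln2, Fa2h, Tmem125 and Tmem88b, 7 members of which 5 were called lower, passed this filter only through the sham group, where they were high, so the filtered count is given as a record and nothing is read from it. With a pseudocount of 0.1 in place of 1, 5 of 29 tested members were called, and with weights per library 18. Over all 10434 genes these settings called 153 and 843. After Benjamini-Hochberg adjustment over all tested genes 0 members were called, and 0 of all genes. In bulk RNA fewer cells of a type and less RNA per cell cannot be told apart.

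These calls depended on single control libraries. Without sham mouse 8_16, 23 of the 33 genes still had the lower mean in CCI, but the median difference was −0.33, and of the 24 members tested 1, Gsn, was called (1.32% of all genes). Ermn, Fa2h and Tmem125, called with all libraries, no longer passed the filter, so part of this fall is a loss of testing. Over all 33 genes without a filter, the two-sided exact permutation p was under 0.05 for 10 genes with all libraries and for 1 without 8_16. Without sham mouse 9_11, which had the lowest sham level of 22 of the 33 genes, 15 members were called, where 415 of 10367 genes were called. Without sham mouse 9_9 it was 4 members, where 177 of 10458 genes were called. Leaving out PTE− mouse 9_14 gave 11, where 3.83% of all genes were called. Within the mice whose names begin with 8, a possible batch whose meaning the sources do not state, 30 of 33 genes were lower in CCI with a median of −0.80, and within those whose names begin with 9, 23 of 33 with a median of −0.47.

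Among the structural proteins of myelin, all 12 had a mean below that of sham, and 6 were called. Mog stood at 14.4, 108, 27.3, 17.4 and 2.85 TPM in sham mice 8_15, 8_16, 9_9, 9_10 and 9_11, at 24.4, 4.48, 2.30 and 12.6 TPM in the 4 PTE+ mice, and between 0 and 9.29 TPM (median 6.40) in the PTE− mice. Levels of 13 of 14 CCI libraries were below the sham median, and 3 were below all sham libraries, so that the groups overlapped. The difference was −1.75 ± 0.65 (SE) on the log2 scale (limma, p = 0.0136, adjusted p = 0.9997; two-sided exact permutation p = 0.0224). Without sham mouse 8_16 it was −1.15, with an exact p of 0.112.

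Mag, which binds the axon surface, was at 36.3, 119.9, 41.8, 27.3 and 6.80 TPM in the same order of sham mice. It was at 38.3, 7.02, 10.99 and 20.9 TPM in PTE+ and at 0 to 24.5 TPM (median 11.7) in PTE− mice. The lowest sham library again lay below most CCI libraries, and the difference was −1.53 ± 0.62 (limma, p = 0.0227, adjusted p = 0.9997), or −1.07 without sham mouse 8_16 (exact permutation p = 0.144). Hapln2, a link protein of the matrix at nodes of Ranvier, was at 7.68, 39.2, 13.3, 7.50 and 0.80 TPM in sham mice. In PTE+ mice it was at 7.28, 1.92, 1.43 and 4.55 TPM, and in PTE− mice at 0 to 6.30 TPM (median 2.63). Each of the 14 CCI libraries was below the sham median, with a difference of −1.43 ± 0.52 (limma, p = 0.012, adjusted p = 0.9997) and of −0.91 without 8_16 (exact permutation p = 0.0974).

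Opalin was at 7.60, 51.7, 11.2, 2.91 and 1.07 TPM in sham, at 10.4, 0.98, 1.97 and 4.60 TPM in PTE+ and at 0 to 6.09 TPM (median 2.94) in PTE− mice. Its sham mean of 14.9 ± 20.9 TPM (SD, n = 5) rested on 8_16. The difference was −1.23 ± 0.57 (limma, p = 0.0428; exact permutation p = 0.0567), and it was −0.57 without 8_16 (exact permutation p = 0.299). Ermn was at 5, 16, 6.16, 4.46 and 0.57 TPM in sham, at 3.84, 1.04, 1.79 and 3.51 TPM in PTE+ and at 0 to 4.69 TPM (median 2.05) in PTE− mice. All 14 CCI libraries were below the sham median of Ermn, with a difference of −0.998 ± 0.43 (limma, p = 0.0295) and of −0.61 without 8_16 (exact permutation p = 0.169). The last structural gene called was Tspan2, a tetraspanin of oligodendrocytes, with a difference of −0.98 ± 0.44 (limma, p = 0.0375), or −0.61 without 8_16 (exact permutation p = 0.213).

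Mbp was at 1124, 1971, 1899.8, 3484 and 124 TPM in sham, at 1508, 588, 580.0 and 916 TPM in PTE+ and at 114 to 1469 TPM (median 569) in PTE− mice, and Mobp at 140.0, 362, 248, 435 and 15.1 TPM in sham, at 153, 57.2, 64.5 and 78.4 TPM in PTE+ and at 0 to 157 TPM (median 56.2) in PTE− mice. All 14 CCI libraries were below the sham median for each gene, yet sham mouse 9_11 was below 13 of them. Neither was called, with differences of −0.82 ± 0.60 for Mbp (limma, p = 0.185; exact permutation p = 0.226) and −1.49 ± 0.87 for Mobp (limma, p = 0.102; exact permutation p = 0.138). Without 9_11 the differences were −1.62 for Mbp (exact permutation p = 0.00948) and −2.31 for Mobp (exact permutation p = 0.0271). Leaving out other libraries made them smaller. The difference of Mbp was −0.62 without 8_16, −0.42 without 9_10 and −0.63 without 9_14 (exact permutation p = 0.405, 0.563 and 0.303), and that of Mobp was −1.19, −1.12 and −1.05 (exact permutation p = 0.277, 0.295 and 0.105). Cnp gave the smallest difference of the list. It was at 294, 547, 400.2, 340.4 and 324 TPM in sham, at 368, 357, 409 and 455 TPM in PTE+ and at 295 to 440 TPM (median 355) in PTE− mice, and the difference was −0.01 ± 0.12 (limma, p = 0.961).

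Of the 6 enzymes, 5 had the lower mean in CCI, and 3 were called without the filter. Qdpr was at 353, 660, 404, 401 and 159.6 TPM in sham and at 49.5 to 369 TPM in CCI mice, with all 14 CCI libraries below the sham median and a difference of −0.80 ± 0.33 (limma, p = 0.0239; exact permutation p = 0.0359). Fa2h, which hydroxylates the fatty acids of myelin lipids, had a difference of −0.90 ± 0.43 (limma, p = 0.0463; exact permutation p = 0.0551), and Ugt8a, which makes galactosylceramide, one of −0.64 ± 0.30 (exact permutation p = 0.0479) at levels of at most 8.12 TPM. Without 8_16 the differences were −0.58 for Qdpr, −0.43 for Fa2h and −0.31 for Ugt8a (exact permutation p = 0.149, 0.282 and 0.253). Aspa, which releases acetate from N-acetylaspartate, stood at 22.1, 75.8, 26.9, 15.5 and 16.04 TPM in sham and at 0 to 38.9 TPM in CCI mice, and was not called (−0.38 ± 0.58). Enpp2, the lysophospholipase autotaxin, had the higher mean in CCI, by 0.13 ± 0.33.

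The transcription factor Myrf was at 0.87, 3.23, 1.47, 0.65 and 0.61 TPM in sham, at 0.83, 0.53, 0.28 and 0.88 TPM in PTE+ and at 0 to 1.13 TPM (median 0.37) in PTE− mice, too low for the filter. Its difference of −0.56 ± 0.20 had an exact permutation p of 0.0124, and of 0.0866 without 8_16. Nkx6-2, a homeobox factor of myelinating cells, was at 53.5, 92.8, 84.4, 36.8 and 68.0 TPM in sham, at 84.5, 51.7, 38.7 and 63.2 TPM in PTE+ and at 30.03 to 74.2 TPM (median 37.9) in PTE− mice. Its difference of −0.46 ± 0.23 missed the threshold (limma, p = 0.0621), and it was −0.33 without 8_16 (exact permutation p = 0.229).

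Among carriers, chaperones and secreted proteins, Gsn was called in the opposite direction. Gsn encodes gelsolin, which severs and caps actin filaments. It was at 115.0, 145, 140.1, 114.9 and 109.6 TPM in sham, at 126, 132, 179 and 259.6 TPM in PTE+ and at 77.7 to 302 TPM (median 202) in PTE− mice, and 9 of the 14 CCI libraries were above all sham libraries. The difference was 0.54 ± 0.23 (limma, p = 0.0314, adjusted p = 0.9997; exact permutation p = 0.0468). It was 0.59 without sham mouse 8_16 and 0.63 without PTE− mouse 9_14 (exact permutation p = 0.0487 and 0.00677). Without sham mouse 9_11, 9_9, 9_10 or 8_15 it was 0.49, 0.58, 0.51 and 0.51 (exact permutation p = 0.0977, 0.0546, 0.0853 and 0.0846). The iron carrier Trf had a difference of −0.73 ± 0.39 (−0.22 without 8_16), Cryab one of 0.13 ± 0.17 and Apod one of 0.47 ± 0.56, none of them called. The level of Apod without 8_16 was 0.97 higher in CCI on the log2 scale (exact permutation p = 0.138).

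None of the 6 receptors, channels and signalling proteins was called, and their differences ran from −0.87 for Bcas1, a protein of early myelinating cells, to 0.22 for Tmem63a. Tmem125, a membrane protein of unknown role, was at 4.17, 17.7, 6.21, 3.29 and 0.69 TPM in sham, at 5.90, 1.61, 0.36 and 1.66 TPM in PTE+ and at 0 to 2.94 TPM (median 0.925) in PTE− mice. It had a difference of −1.30 ± 0.46 (limma, p = 0.0108; exact permutation p = 0.0141), and of −0.86 without 8_16 (exact permutation p = 0.0788). The other members of its group, Evi2a and Tmem88b, were not called.

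**Figure D3:**
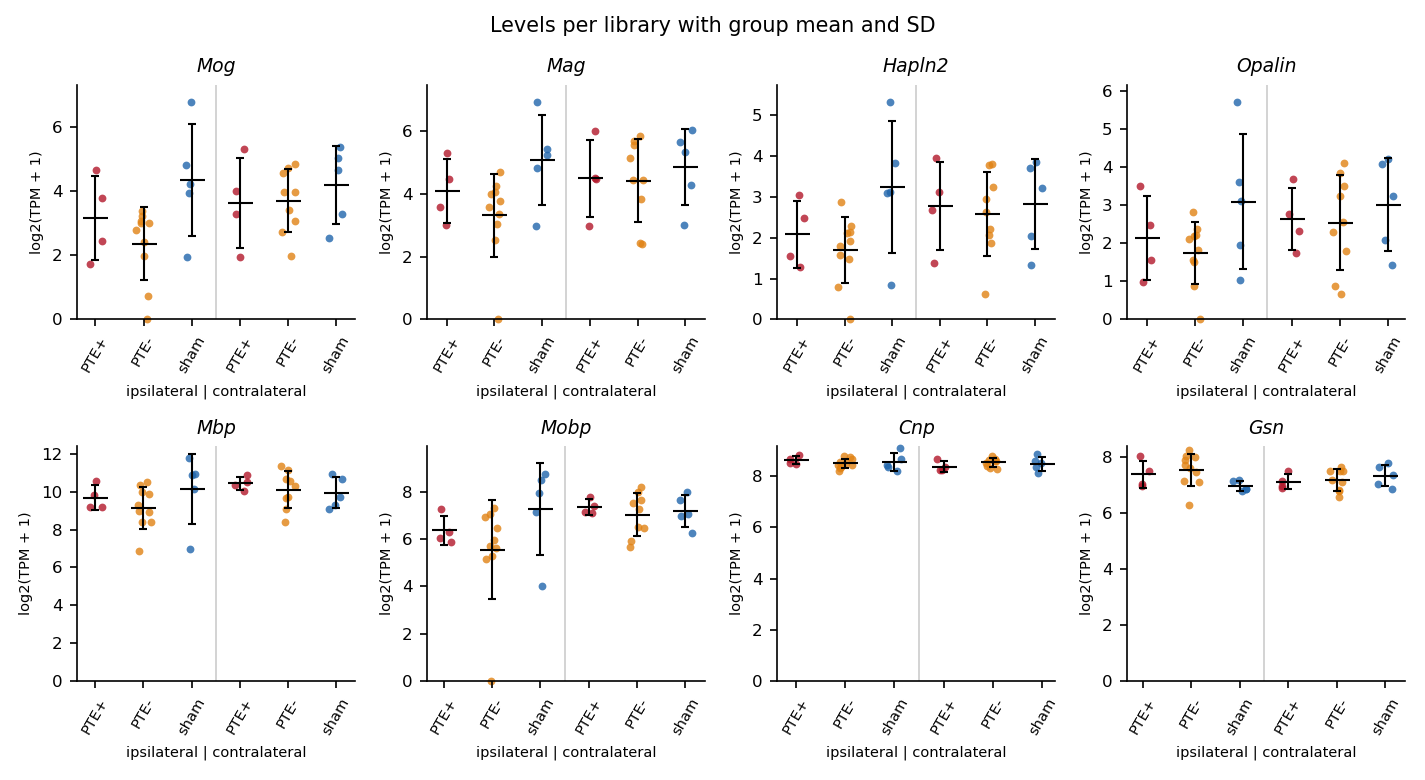
Levels of 8 members as log2(TPM + 1), with 1 point per library and the mean and SD of each group as a line with error bars, for the ipsilateral (left) and contralateral (right) groups. Ipsilateral sham libraries spread widely for Mog, Mag, Hapln2, Opalin, Mbp and Mobp, Cnp is level in every group, and the ipsilateral CCI libraries of Gsn reach above those of sham mice.

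**Figure D4:**
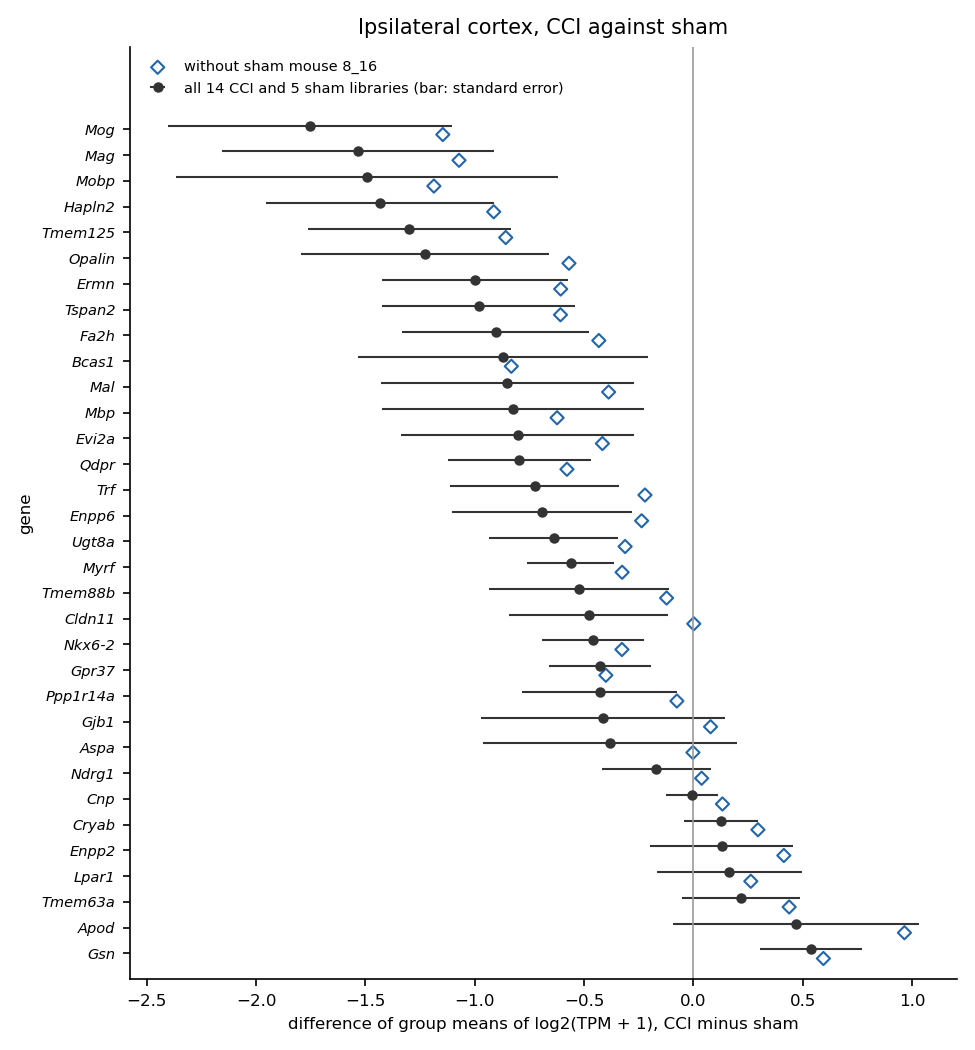
Difference of group means of log2(TPM + 1), CCI minus sham, in the ipsilateral cortex for each of the 33 genes, with the standard error of the limma fit (filled points, n = 14 and 5) and the difference without sham mouse 8_16 (open diamonds). With all libraries 27 genes lie left of 0, and without 8_16 all 33 points move to the right.

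A further 30 myelin and oligodendrocyte genes outside the list were followed in the same way. In the ipsilateral comparison of CCI with sham, 25 of the 30 had the lower mean, with a median of −0.25. Of these 30 genes 22 were tested, and Ninj2, an adhesion protein (−0.80 ± 0.36), the sphingosine receptor S1pr5 (−0.86 ± 0.41) and Tubb4a (−0.78 ± 0.37) were called lower and Plp2 higher (0.61 ± 0.18, limma, p = 0.00221). Over all 10434 genes tested 0.383% were called lower and 1.24% higher. Ninj2 (mean 6.23 TPM in sham, 3.53 TPM in CCI) and S1pr5 (5.35 and 1.93 TPM) passed the filter only through the sham group, where they were high. Nothing is read from the calls of these genes. S1pr5 no longer passed the filter without sham mouse 8_16 and could not be called there. Without sham mouse 8_16 0 of 20 tested genes of this list were called lower by limma, where 35 of 10470 genes were. The differences were then −0.82 for Ninj2, −0.48 for S1pr5, −0.42 for Tubb4a and 0.53 for Plp2 (exact permutation p = 0.0542, 0.249, 0.288 and 0.0085). The lineage factors Olig1 (−0.18 ± 0.16), Olig2 (−0.10 ± 0.25) and Sox10 (0.04 ± 0.51) were not called.

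The contralateral cortex, compared in the same way, gave 0 calls among the members, where 4.05% of 10556 tested genes were called (limma; 27 members tested, smallest adjusted p 0.978). Without the filter 28 of 33 genes had the lower mean in CCI, with a median of −0.19 beside −0.04 over all genes. Mog was at 31.5, 40.1, 24.3, 8.72 and 4.74 TPM in sham mice in the same order, at 14.9, 38.3, 8.76 and 2.86 TPM in PTE+ mice 8_10, 8_17, 9_17 and 9_18, and at 2.96 to 27.8 TPM (median 14.7) in PTE− mice. The groups overlapped, with 2 of 13 CCI libraries below all sham libraries, and the difference was −0.49 ± 0.52 (limma, p = 0.35). Mag was at 64.3, 48.5, 38.8, 18.6 and 7.04 TPM in sham, at 21.6, 62.3, 21.1 and 6.88 TPM in PTE+ and at 4.30 to 56.4 TPM (median 20.8) in PTE− mice, a difference of −0.42 ± 0.57. Mobp was at 126, 132, 251 and 203 TPM in sham mice 8_15, 8_16, 9_9 and 9_10 and at 76.3 TPM in 9_11, and CCI libraries lay between 49.9 and 296 TPM, a difference of −0.06 ± 0.35. Cnp was again level, at 278 to 469 TPM in sham and 297 to 442 TPM in CCI mice. Mbp had the higher mean in CCI mice, at 332 to 2676 TPM against 830, 639, 1949, 1661 and 538 TPM in sham, a difference of 0.26 ± 0.39 (limma, p = 0.506). Mouse 8_16 held the highest contralateral level of 6 of the 33 genes, and the mean of its 33 log2 levels was the fifth of 18 libraries. Without it the median difference was −0.09.

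The second question of the study was whether epileptic and non-epileptic injured mice differ. In neither hemisphere was a member called between PTE+ and PTE− mice, where 0.573% of 10473 genes were called in the ipsilateral and 2.79% of 10423 in the contralateral cortex (limma; 22 and 26 members tested, smallest adjusted p 0.977 and 0.999, and 0 members at an unadjusted p under 0.05). Ipsilaterally 26 of 33 genes had the higher mean in PTE+ mice, with a median difference of 0.28 beside 0.05 over all genes. Differences were 0.80 ± 0.65 for Mog, 0.77 ± 0.67 for Mag, 0.82 ± 0.97 for Mobp and 0.53 ± 0.54 for Mbp. Without PTE− mouse 9_14, 0 members were called, where 1.89% of all genes were. The median difference of the 33 genes was then 0.16, with 26 of 33 higher in PTE+ mice, and the differences were 0.54 for Mog, 0.40 for Mag, 0.20 for Mobp and 0.27 for Mbp. Mog at 24.4 TPM in PTE+ mouse 8_10 was the highest of all ipsilateral CCI libraries. The 12.6 TPM of mouse 9_19 also lay above the ipsilateral PTE− range, while the values of 4.48 and 2.30 TPM lay within it. Cnp (0.13 ± 0.11), Myrf (0.15 ± 0.18) and Nkx6-2 (0.43 ± 0.24) were not called either. Contralaterally 17 of 33 genes had the higher mean in PTE+ mice, and the differences of Mog (−0.06 ± 0.57), Mag (0.07 ± 0.66), Mobp (0.33 ± 0.41), Mbp (0.34 ± 0.44) and Cnp (−0.17 ± 0.12) were within the spread. Nkx6-2 again had the larger mean in PTE+ mice, by 0.44 ± 0.24 (limma, p = 0.0869), with 84.6, 52.2, 45.9 and 47.3 TPM in PTE+ and 27.1 to 69.5 TPM (median 38.7) in PTE− mice.

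The hemispheres of 1 mouse could be set against each other in 12 CCI and 5 sham mice. Both hemispheres were measured over the same genes. In the CCI mice 27 of 33 genes had the lower mean on the injured side, with a median of −0.30 beside 0.00 over all genes. In the fit without pairing 4 members were called among 29 tested, Mobp, Tspan2 and Mal lower and Gsn higher, against 2.18% of 10695 genes. Without PTE+ mouse 9_17 this fit called 1 member, where 324 of 10696 genes were called. Without PTE+ mouse 8_10 it called 7, where 210 of 10702 genes were called. Since the hemispheres come from the same animal, the fit with the mouse as a block removes the spread between mice, and it called 11 members, 10 lower (Mog, Mobp, Mbp, Mal, Tspan2, Ermn, Hapln2, Qdpr, Ppp1r14a and Bcas1) and Gsn higher. In that fit 4.58% of all genes were called, 2.12% of them lower, counted over all genes tested. The smallest adjusted p of a member was 0.188 (limma with Benjamini-Hochberg adjustment), so 0 members passed after adjustment, while 19 of all genes did. With the two-sided exact permutation test, which flips the sign of the difference within mice, 12 of the 33 genes had a p under 0.05, Cldn11 and Ugt8a being those not among the 11. The share of all genes under this test is not given, so nothing is read from that count. Mouse 9_14 has no contralateral library and is not part of this comparison. The size of the difference varied with the mouse name. In CCI mice whose names begin with 8, 22 of 33 genes were lower on the injured side, with a median of −0.09. In those beginning with 9, 24 of 33 were lower, with a median of −0.52. Sham mice gave 8 of 33 (median 0.25) and 24 of 33 (median −0.15) in the same order. What the prefix stands for is not known, and its part was not tested.

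The within-mouse difference of Mobp (ipsilateral minus contralateral, log2) ran from −2.29 to 0.59 in CCI mice with a median of −0.99, and was below 0 in 10 of 12 mice. Its mean was −0.92 ± 0.27 (SE, blocked limma fit, p = 0.00247; exact permutation p = 0.00586). Mog ran from −1.98 to 1.02 with a median of −0.75, below 0 in 10 of 12 mice, and its mean was −0.84 ± 0.26 (exact permutation p = 0.021). The differences of both genes in the 5 sham mice spread on either side of 0, from −2.26 to 1.45 for Mobp and from −1.08 to 1.41 for Mog.

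Mbp had a mean of −0.72 ± 0.27 (below 0 in 8 of 12 mice, exact permutation p = 0.0278) and Mal, a raft proteolipid of myelin membrane sorting, one of −0.58 ± 0.16, from −1.53 to 0.26 (9 of 12, exact permutation p = 0.00977). Tspan2 gave −0.61 ± 0.22, from −1.94 to 0.67 (9 of 12, exact permutation p = 0.0273). The most uniform direction was that of Ppp1r14a, below 0 in 11 of 12 mice with a mean of −0.43 ± 0.16 (exact permutation p = 0.00781), and Ugt8a was below 0 in 10 of 12 with a mean of −0.60 (exact permutation p = 0.00586). Mag, which had shown a large difference from sham, was below 0 in 7 of 12 mice, ran from −2.48 to 1.55 and was not called (−0.55 ± 0.31, exact permutation p = 0.182). Cnp gave 0.03 ± 0.08, Myrf a mean of −0.21 (exact permutation p = 0.176) and Nkx6-2 0.05 ± 0.16.

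Gsn was higher on the injured side in 10 of 12 CCI mice, from −0.52 to 1.24 with a median of 0.45 and a mean of 0.40 ± 0.13 (exact permutation p = 0.0303). It was lower on the operated side in all 5 sham mice, by −0.93 to −0.09 with a mean of −0.37 (exact permutation p = 0.0625, the smallest that 5 mice allow). The difference between CCI and sham mice in this contrast was 0.77 ± 0.27 (limma without the block, p = 0.00682, adjusted p = 0.9997; exact permutation over mice p = 0.0124), and it was 0.75 without sham mouse 8_16 (exact permutation p = 0.0264). Gsn was the only member called in the test of this difference without the block, where 1.93% of genes were called. With the block 4 were called, where 6.5% of genes were called, adding Qdpr (−0.61 ± 0.20), Hapln2 (−1.04 ± 0.48) and Tmem125 (−1.20 ± 0.50) in the lower direction. Without sham mouse 8_16 their differences were −0.47 for Qdpr (exact permutation p = 0.0681), −0.74 for Hapln2 (exact permutation p = 0.208) and −0.95 for Tmem125 (exact permutation p = 0.123). For Mog (−1.01 ± 0.49), Mobp (−1.001 ± 0.49), Mbp (−0.92 ± 0.51) and Mag (−0.77 ± 0.57) the difference between CCI and sham mice was not called in either fit, so the lower level on the injured side of CCI mice is not shown to differ from that of sham mice. Without sham mouse 8_16 it was −0.70 for Mog, −0.66 for Mobp, −0.56 for Mbp and −0.50 for Mag (exact permutation p = 0.253, 0.280, 0.371 and 0.498), and without sham mouse 9_10 it was −0.75 for Mobp and −0.70 for Mbp (exact permutation p = 0.242 and 0.292). Without sham mouse 9_11 the difference was −1.59 for Mobp (exact permutation p = 0.00604) and −1.49 for Mbp (exact permutation p = 0.0121). The fit without the block then called 6 members, where 352 of 10613 genes were called. Without PTE+ mouse 8_10 it called 2, where 197 of 10702 genes were called. In sham mice 0 members were called between hemispheres (limma, 0 at an unadjusted p under 0.05 in either fit), where 2.95% of all genes were called without and 9.04% with the block, and 14 of 33 genes had the lower mean on the operated side.

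**Figure D5:**
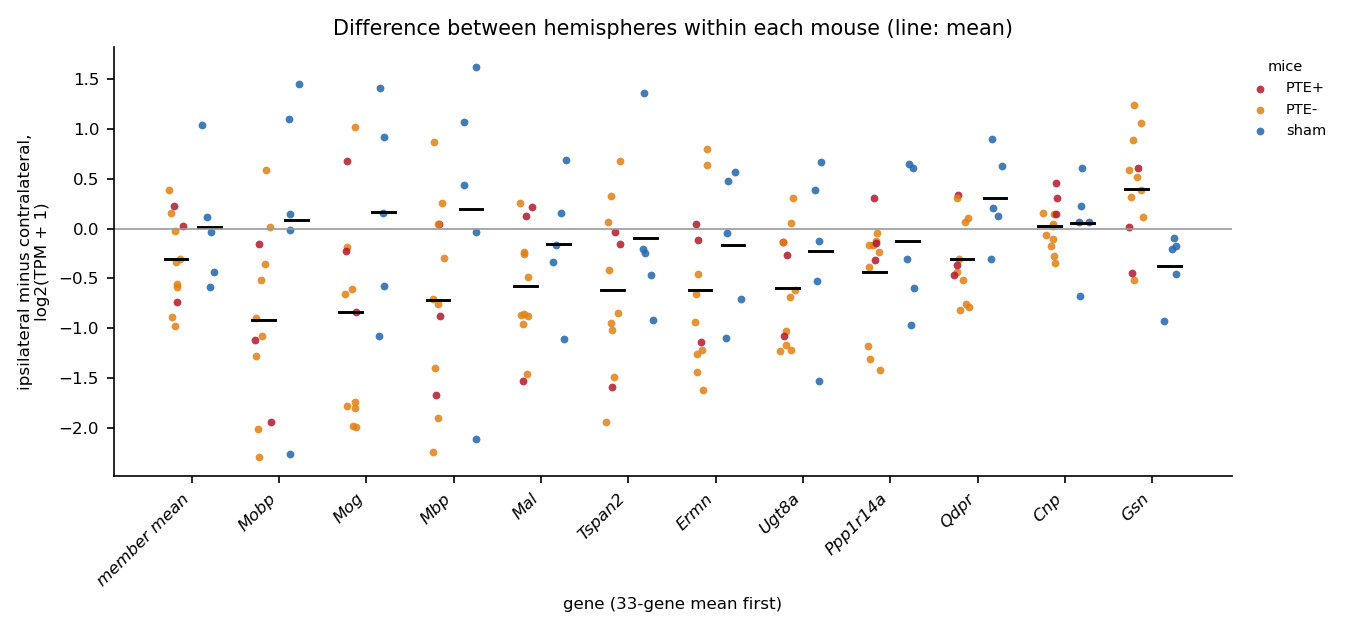
Difference in log2(TPM + 1) between the ipsilateral and the contralateral cortex of each mouse, for the mean of the 33 genes and for 11 members, with CCI mice left and sham mice right of each tick and the mean as a line. The CCI points of Mobp, Mog and Mal lie mostly below 0, those of Cnp around 0 and those of Gsn mostly above 0, while all 5 sham points of Gsn lie below 0.

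Genes outside the list differed between hemispheres too. Olig2, a factor of the whole oligodendrocyte lineage that some astrocytes also hold, was lower on the injured side in 11 of 12 CCI mice, with a mean of −0.45 ± 0.08 (blocked limma fit, adjusted p = 0.0113; exact permutation p = 0.000977). In sham mice its mean difference was 0.06, and the difference between CCI and sham was −0.51 ± 0.14 in the blocked fit (p = 0.00184, adjusted p = 0.569). S1pr5, a receptor of mature oligodendrocytes, was called lower (−0.63 ± 0.21) and the sulfotransferase Gal3st1 (0.27 ± 0.12) and Sox10 (0.46 ± 0.21) higher in the blocked fit. Matn4, of the list of 10 precursor markers, was higher on the injured side in 12 of 12 CCI mice, by 1.14 ± 0.24 (blocked limma fit, adjusted p = 0.0549; exact permutation p = 0.000488, the smallest possible). The astrocyte filament gene Gfap was higher in 12 of 12, by 1.21 ± 0.17 (blocked limma fit, adjusted p = 0.00218). Of the 10 endothelial markers all had the lower mean on the injured side in CCI mice, from −0.27 for Cldn5 to −0.51 for Ly6c1, and also on the operated side in sham mice, from −0.15 for Esam to −0.62 for Kdr. In the blocked fit 5 of 9 tested endothelial markers were called lower in CCI and 2 in sham mice. The mural cell genes Rgs5 (−0.41) and Acta2 (−0.66) were called lower in CCI mice, and the water channel gene Aqp4 of astrocytes (0.29) and the precursor gene C1ql1 (0.52) higher. The rest of the mural and fibroblast list went both ways in CCI mice. Pdgfrb, Kcnj8, Col1a1, Col1a2, Col3a1 and Vtn had the higher mean on the injured side, from 0.04 for Col1a1 to 0.17 for Col1a2. Dcn (−0.26) and Lum (−0.14) had the lower mean. In sham mice Rgs5 (−0.47) was also called lower, as was Lum (−0.69) of the mural and fibroblast list. Acta2 was lower in 5 of 5 sham mice, with a mean of −0.49, and was not called. The sham means of Aqp4 and C1ql1 were −0.14 and −0.07. None of 9 microglial and 9 neuronal markers tested was called between hemispheres of CCI or of sham mice in the blocked fit. In the difference between CCI and sham mice that fit called Gfap (1.42), Matn4 (1.04), Gad1 (0.54), Aqp4 (0.43) and Cd9 (0.34) higher. It called Olig1 (−0.37) and Olig2 (−0.51) lower, and 6.5% of all genes were called. Gad1 was the only neuronal marker called. The mean differences of Rbfox3, Snap25, Syt1, Slc17a7, Tubb3, Stmn2 and Nefl were lower in CCI than in sham mice. That of Gad2 was higher, and that of Camk2a was 0.03 in both. The part of these cell types in the differences of the myelin genes was not tested.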

How the data were processed

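Astrocyte RNA of 37 cortical libraries from 20 mice was analysed. With SMART-Seq v4 libraries, the authors trimmed reads with Trim Galore 0.6.4, mapped them to mm10 with RSEM 1.2.28 and Bowtie2 2.4.1, and deposited TPM per Ensembl gene, in 1 table per hemisphere, which were used as given. The release of their gene annotation is not given in the sources used here. Their own tests were made on raw counts, which were not used here. TPM keep no depth, so precision per library is unknown.

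Symbols and positions came from GENCODE vM21 (GRCm38), which named 21856 identifiers and left 119 without a name. Values were compared as log2(TPM + 1), a pseudocount of 1, with limma 3.58.1 in R 4.3.3 (variance trend) for genes whose mean passed 5 TPM in a group compared, a choice that understates changes of low genes. Fits were tested on simulated data. Single genes were also tested by two-sided exact permutation over 11628, 1001, 8568 and 715 arrangements of libraries (ipsilateral and contralateral, CCI against sham and PTE+ against PTE−), 4096 and 32 sign flips within mice, and 6188 arrangements of mice. Groups follow the labels; separate mice are the replicates. The median correlation between the hemispheres of 1 mouse, as deviations from group means over 10249 genes, was 0.42 (from 0.0084 to 0.70, with 16 of 17 mice over 0.1), against −0.09 in 98 pairs of different mice, and same-named samples are the same animal.

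The 33 genes, the lists and the tests were chosen with earlier results of these data known. The rule for values by library was the called members of each comparison (the 6 with the largest difference where more were called) plus Mbp, Mog, Mag, Mobp, Cnp, Myrf and Nkx6-2; contralateral values of some are given as ranges, and Gsn, Qdpr and Aspa were added after their values were seen. Alternatives were a pseudocount of 0.1, a filter at 1 TPM or none, quantile normalization, median centring, weights per library, 1 fit over all groups, the name prefix of the mice, fold thresholds of 1.5 or none, the mouse as a block, and leaving out single mice. Leaving out 8_16 and 9_14 together, and leaving out 8_16 for the called genes of the other myelin list, were added after seeing the data. Other steps ran in Python 3.11.15 (scipy 1.17.1, numpy 2.4.6, pandas 2.3.3, matplotlib 3.10.9).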

Additional observations from a re-analysis of the deposited data

Results flagged for a closer look

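In the ipsilateral cortex PTE− mouse 9_14 lay apart from the other 9 PTE− mice, with a mean log2(TPM + 1) over the 33 genes of 2.62 and levels of Mag, Mobp, Tspan2 and Mal of 0 TPM. In the contralateral cortex the Tspan2 level of 6.40 TPM in PTE+ mouse 9_18 lay apart from those of the other 3 PTE+ mice. These are 6 of 90 groups tested by the gap to the nearest sample, and chance flags about 1 in 20.

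The difference between hemispheres differed between CCI and sham mice for Gsn (0.77, p = 0.00682, limma). With the mouse as a block it also differed for Hapln2 (−1.04, p = 0.0421), Qdpr (−0.61, p = 0.00705) and Tmem125 (−1.20, p = 0.0252), and none of the 4 passed the Benjamini-Hochberg adjustment.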

How the results depend on the processing

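Number of members called, ipsilateral CCI against sham: 10 of 29 tested, 5 with a pseudocount of 0.1 and 18 with array weights, and 1 to 15 when single mice were left out. Between hemispheres of CCI mice 4 were called, 2 at a fold threshold of 1.5, 7 with the prefix of mouse names in the model, 9 with array weights and 11 with the mouse as a replicate block, and 1 to 7 without single PTE+ mice. The difference between CCI and sham mice in this contrast gave 1 call, 2 with the prefix, 4 with the replicate block and 7 with array weights, and 1 to 6 without single mice. Contralateral PTE+ against PTE− mice gave 0 calls, 1 with the prefix, 2 with array weights and 0 to 3 without single mice. Without single mice that comparison called from 201 of 10260 to 489 of 10488 over all genes. The number over all genes at a fold threshold of 1.5 is not given. Array weights gave 1 call between hemispheres of sham mice. Over all genes, array weights called 843 of 10434 for ipsilateral CCI against sham and 828 of 10423 for contralateral PTE+ against PTE−. Of 10695 genes they called 395 between hemispheres of CCI mice, 912 in sham mice and 1015 in the difference between CCI and sham. With the prefix 271 of 10695 genes were called between hemispheres of CCI mice, 301 of 10695 in that difference and 329 of 10423 for contralateral PTE+ against PTE−. Ipsilateral PTE+ against PTE− gave 0 to 1 and contralateral CCI against sham 0 to 0 without single mice. Over all genes the former called from 23 of 10438 to 197 of 10440, and the latter from 231 of 10455 to 883 of 10592.

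Under the other settings tried the number of called members stayed within 1.5 times of the reported one. With the mouse as a replicate block 0 members were called between hemispheres of sham mice, as without it. Depth is unknown for TPM, so it cannot be said which low levels are limited by reads, and a gene listed at 0 may have had some. The cause of the changes with array weights and with the pseudocount was not tested.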
